A study of Mus musculus with 12 samples.

Results

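The genes described here drive the passage from G2 phase into mitosis and carry out mitosis itself. They were the 40 genes of the count table whose symbol was on a list of known G2/M and mitosis genes, out of 24470 genes in the table, and all 40 passed the filter on low counts that left 15572 genes for testing. RNA-seq was measured in fetal mouse testes at E14.5 in 6 control pools and 6 cKO pools, each of 3 testes. Control embryos were Nr2f2 f/f, with both copies of Nr2f2 floxed and no Cre. The cKO embryos were Wt1 CreER; Nr2f2 f/f, and tamoxifen was given to the dams of both groups, so that the controls carried the floxed alleles and the drug as well. The floxed allele carries a LacZ reporter, and deletion is limited to cells that expressed Wt1 when tamoxifen was given, which include progenitors of the interstitium and Sertoli cells. Nothing in the labels says that the pools came from separate litters, so the p-values measure the spread between these pools.

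Entry into mitosis is set by cyclin-dependent kinase 1 (CDK1) bound to A- and B-type cyclins. WEE1-family kinases hold the complex inactive by phosphorylation and CDC25 phosphatases remove that block, after which Polo-like and Aurora kinases build the spindle, kinetochores capture microtubules, and the anaphase-promoting complex (APC/C) destroys cyclin B so that chromosomes separate and cells divide. Most of these genes are switched on together late in the cell cycle, through promoter elements known as the cell cycle genes homology region (CHR), read by the DREAM and MMB complexes that share the MuvB core, and CCAAT boxes read by NF-Y. The fetal testis at this stage is a growing organ with dividing Sertoli, interstitial and endothelial cells, and many of its germ cells have already entered mitotic arrest.

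Promoter sequences are shown because they are what these genes are known to share. RefSeq promoter windows (GRCm38.p6, the build of the counts), which run from 250 bases before to 50 bases after an annotated start, were found for 34 of the 40 genes, in 36 windows. The windows were searched on both strands for the CHR-type motif TTTGAA, for its variant TTCGAA, and for the box CCAAT, none of which overlaps another in the sequences shown. Read from the other strand, the first motif appears as TTCAAA. The box appears as ATTGG when read that way. The 150 bases from 100 before to 50 after the start are given here for the 4 genes that fell in cKO testes (Cdk1, Cks1b, Cdc25b and Birc5) and for 4 genes that did not pass the test (Plk1, Ccnb2, Cdc20 and Kif11), with the matches in capitals. They lie at chr10:69352863-69353012 (minus strand) for Cdk1, chr3:89418242-89418391 (minus strand) for Cks1b, chr2:131186848-131186997 (plus strand) for Cdc25b, chr11:117849137-117849286 (plus strand) for Birc5, chr7:122159335-122159484 (plus strand) for Plk1, chr9:70421505-70421654 (minus strand) for Ccnb2, chr4:118437294-118437443 (minus strand) for Cdc20 and chr19:37376282-37376431 (plus strand) for Kif11.
Cdk1: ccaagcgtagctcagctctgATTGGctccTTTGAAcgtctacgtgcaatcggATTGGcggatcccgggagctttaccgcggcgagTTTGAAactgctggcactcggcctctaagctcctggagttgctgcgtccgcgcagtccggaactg
Cks1b: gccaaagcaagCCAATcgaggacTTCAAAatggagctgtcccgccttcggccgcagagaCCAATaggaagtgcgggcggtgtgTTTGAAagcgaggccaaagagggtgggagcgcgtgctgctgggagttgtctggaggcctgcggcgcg
Cdc25b: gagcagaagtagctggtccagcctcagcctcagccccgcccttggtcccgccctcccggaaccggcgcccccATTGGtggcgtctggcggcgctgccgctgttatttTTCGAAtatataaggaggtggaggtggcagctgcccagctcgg
Birc5: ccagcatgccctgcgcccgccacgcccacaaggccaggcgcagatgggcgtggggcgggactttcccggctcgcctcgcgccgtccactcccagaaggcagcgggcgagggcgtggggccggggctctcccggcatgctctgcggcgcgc
Plk1: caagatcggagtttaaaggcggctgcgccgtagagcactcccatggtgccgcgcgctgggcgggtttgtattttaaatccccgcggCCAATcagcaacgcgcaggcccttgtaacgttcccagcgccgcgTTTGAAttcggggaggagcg
Ccnb2: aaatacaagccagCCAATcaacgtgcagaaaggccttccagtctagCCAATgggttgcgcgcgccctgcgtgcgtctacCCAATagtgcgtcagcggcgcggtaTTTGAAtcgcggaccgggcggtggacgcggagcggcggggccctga
Cdc20: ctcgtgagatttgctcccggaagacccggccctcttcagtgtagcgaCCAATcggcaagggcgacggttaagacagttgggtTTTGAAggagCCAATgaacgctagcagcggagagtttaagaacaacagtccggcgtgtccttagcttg
Kif11: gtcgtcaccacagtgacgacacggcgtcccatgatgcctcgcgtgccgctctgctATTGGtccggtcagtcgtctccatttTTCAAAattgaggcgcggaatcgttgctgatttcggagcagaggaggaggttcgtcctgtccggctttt

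TTTGAA was found in 22 of the 36 windows (61.1%) within these 150 bases, against 4.77% of the 15474 windows of all genes tested and 8.01% of all 32851 windows. CCAAT was found in 23 of the 36 (63.9%), against 24.8% of the windows of genes tested. TTCGAA was rarer, with 2 of 36 (5.56%) against 0.808%. In the whole window of 300 bases the shares were 63.9% for TTTGAA, 75% for CCAAT and 11.1% for TTCGAA, against 12.1%, 37.5% and 2.04% among genes tested. Of the 25 distinct TTTGAA matches in the 150 bases, 22 began within 40 bases of a start. The overlapping windows of Ect2 hold the same match. These shares describe genes chosen for a common function, and a match is not evidence of binding.

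The 4 genes that fell did not share 1 arrangement. Cdk1 had TTTGAA 71 and 15 bases before the start, and Cks1b had it 77 and 17 bases before, each with CCAAT boxes close by. Cdc25b had TTCGAA beginning 7 bases after the start position and no TTTGAA. Birc5 had none of the 3 motifs in its window, which says only that these letters are not there. Of the genes that did not pass the test, Cdc20 and Kif11 had the motif 18 and 19 bases before the start, and Ccnb2 and Plk1 had it 4 and 30 bases after. The median log2 fold change was -0.16 for the 21 genes with TTTGAA in the 150 bases and -0.20 for the 13 matched genes without it.

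**Figure D1:**
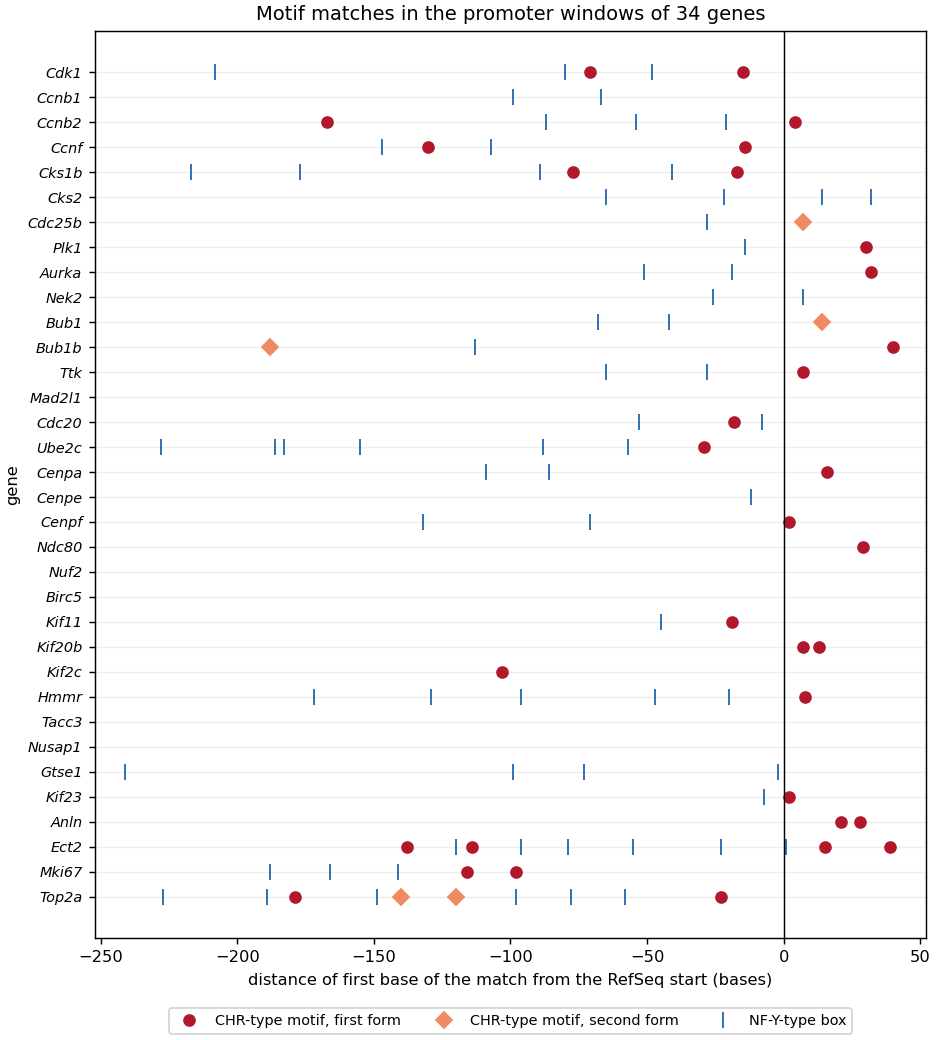
Motif matches in the RefSeq promoter windows of 34 G2/M and mitosis genes. The x axis is the distance in bases from the annotated start (0, vertical line) to the first base of a match, circles and diamonds are the 2 forms of the CHR-type motif, bars are CCAAT boxes, and genes are ordered by role. Of the 26 circles from 100 bases before the start onwards, 23 lie within 40 bases of it (1 match of Ect2 is drawn for each of its 2 overlapping windows), and Birc5, Nuf2, Mad2l1, Tacc3 and Nusap1 have no match in the window.

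Total counts per library ran from 7044531 to 59404778, and no member had fewer than 119 reads in any library. The targeted gene Nr2f2 ranged from 162.5 to 185.9 CPM (counts scaled to library size by TMM) in control pools and from 50.2 to 118.6 CPM in cKO pools (a log2 difference of -1.21, standard error, SE, 0.16, adjusted p = 0.000548 in the quasi-likelihood test of edgeR), so Nr2f2 RNA remained in every cKO pool. Several libraries stood apart. Xist, the RNA of the inactive X chromosome, reached 304 to 891 CPM in 4 libraries, namely control replicate 1 and replicates 3, 5 and 6 of the cKO group. It was 5.16 to 7.68 CPM in the 8 others, called Xist-low here. Control replicate 1 also had the highest sum over 6 ovarian markers (315 CPM, against 80.03 to 92.8 CPM in the other controls) and the lowest sum over 4 Y-linked genes (197 CPM), although it is labelled as testis. The same ovarian sum was 141, 207 and 193 CPM in cKO replicates 3, 5 and 6 and 66.7 to 74.4 CPM in the other cKO pools, and the Y-linked sum was 258, 225 and 232 CPM against 287 to 318 CPM. In control replicate 1, Nr2f2 (169.1 CPM) and the interstitial marker sum (6846 CPM) lay within the range of the other controls and above every cKO pool. Other sums set it apart. Its Leydig marker sum (2200 CPM) lay below the other controls (2741 to 3548 CPM) and below cKO replicates 1 and 2 (2384 and 2366 CPM). Its endothelial marker sum (622 CPM) was the highest of the 12 libraries. Whether control replicate 1 is a mixed pool was not tested, and every mean over 6 controls includes it. Meiosis markers summed to 1543 and 1550 CPM in cKO replicates 5 and 6 and to 295 to 645 CPM in the 10 others. In control replicates 5 and 6, genes with low GC content read high, with a correlation across all genes of -0.48 and -0.29 between deviation from the mean of the 12 libraries and GC content, where the other libraries lay between -0.12 and 0.29. Results are given with and without these libraries.

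Most G2/M and mitosis genes had slightly lower values in cKO testes, and few of them passed the test. Of the 40 genes, 4 fell (Birc5, Cks1b, Cdk1 and Cdc25b) and 0 rose by edgeR's quasi-likelihood test at an adjusted p under 0.05, and 0 were higher at an unadjusted p under 0.05, against 14 lower (35% of the members, where 13.2% of all genes were lower and 12.1% higher at that threshold). The 4 are 10% of the members, while 4.85% of all 15572 genes were called lower and 3.28% higher. The log2 fold change, cKO against control, was negative for 32 of 40 genes, with a median of -0.19 against 0.0030 over all genes, where 49.4% were negative. The largest difference was -0.40, and the median standard error was 0.11. In whole-testis RNA, fewer dividing cells and less of these RNAs per dividing cell cannot be told apart.

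**Figure D2:**
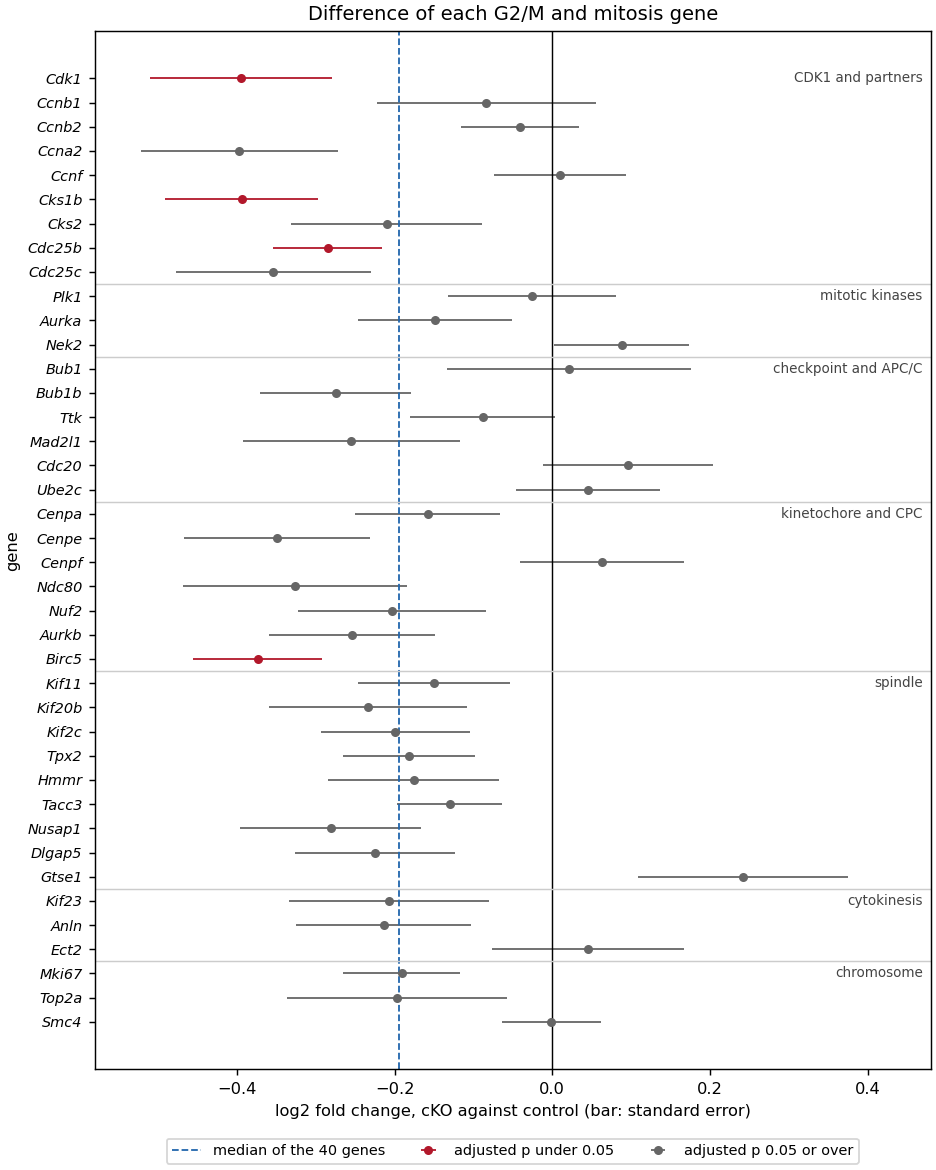
Log2 fold change of each of the 40 genes in cKO against control testes, with its standard error, by role. The x axis is the log2 fold change from the edgeR fit, red points passed an adjusted p of 0.05, and the dashed line is the median of -0.19. The 8 genes to the right of 0 include Gtse1 at 0.24.

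The CDK1 group, the engine of mitotic entry, held 3 of the 4 genes that fell, and 8 of its 9 members had negative values (median log2 fold change -0.29). Cdk1 itself (Entrez Gene 12534, chr10:69336635-69352912 of mm10), the kinase that starts mitosis, had 92.2 CPM in control replicate 1 and 125, 135, 124, 175 and 147 CPM in control replicates 2 to 6. It had 96.2, 106, 95.6, 102, 105 and 102 CPM in the 6 cKO pools. The cKO values all lay between control replicate 1 and the other controls, and the means were 133 ± 27.5 and 101 ± 4.35 CPM (SD, n = 6 pools each), which is -0.40 on the log2 scale (SE 0.12, adjusted p = 0.0492 in the quasi-likelihood test of edgeR). This call was the least stable of the 4, since when each of the 12 libraries was left out in turn it held in 1 case, the fit without control replicate 1, and its edgeR adjusted p rose to as much as 0.111.

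Cks1b (Entrez Gene 54124, chr3:89415472-89418291) encodes a small subunit that docks CDK complexes onto phosphorylated substrates. Its control pools had 52.7 CPM in replicate 1 and 69.3 to 89.8 CPM in replicates 2 to 6, and its cKO pools had 51.6 to 57.1 CPM. Apart from control replicate 1 the groups did not overlap, and the fall was -0.39 on the log2 scale (72.0 ± 11.9 to 54.7 ± 1.84 CPM, SE 0.10, adjusted p = 0.0232 in the quasi-likelihood test of edgeR), and the call held in 10 of 12 fits with a library removed. Its paralog Cks2, the member with the highest RNA per kilobase in this group (128 control CPM per kb), ran from 61.0 to 122 CPM in control pools (median 85.4) and from 73.4 to 80.2 CPM in cKO pools (median 75.4), and did not pass the test (log2 fold change -0.21, edgeR adjusted p = 0.293).

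Cdc25b (Entrez Gene 12531, chr2:131186948-131198511), the phosphatase that first activates CDK1 at the centrosome, showed another pattern. Its control pools lay close together at 36.2, 41.0, 39.9, 38.9, 38.0 and 40.9 CPM, with control replicate 1 again lowest but by little. Its cKO pools had 33.6, 36.3, 31.5, 32.7, 27.7 and 30.5 CPM. Only cKO replicate 2 reached the lowest control, and the log2 fold change was -0.29 (39.2 ± 1.85 to 32.1 ± 2.92 CPM, SE 0.07, adjusted p = 0.0218 in the quasi-likelihood test of edgeR). The lowest cKO values were in replicates 5 and 6, which are among the libraries with high Xist, and among the 8 Xist-low libraries it was -0.21 (edgeR adjusted p = 0.0941). Its relative Cdc25c, the member with the lowest RNA per kilobase (7.78 control CPM per kb), had 13.9 CPM in control replicate 1, 19.8 to 24.0 CPM in the other controls (median of all 6, 21.04) and 13.8 to 18.1 CPM in cKO pools (median 15.9), with a log2 fold change of -0.35 that missed the threshold (edgeR adjusted p = 0.0966).

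By edgeR's test on all 12 libraries with no offset, none of the cyclins that pair with CDK1 passed the threshold. Ccna2, the A-type cyclin of S and G2 phase, had the most negative value of all 40 genes (log2 fold change -0.40, edgeR adjusted p = 0.0659). It had 136 CPM in control replicate 1, 195 to 275 CPM in the other controls and 145 to 169 CPM in cKO pools, and it was called by DESeq2 (adjusted p = 0.0318), among the 8 Xist-low libraries (edgeR adjusted p = 0.0492) and after an adjustment for GC content (edgeR adjusted p = 0.0496). It was called in 5 of 26 alternatives in all, and in the other 21 its adjusted p by edgeR or limma-voom ran from 0.0647 to 0.24, with 0.171 when Xist was a covariate and 0.24 without control replicates 5 and 6 (log2 fold changes -0.27 and -0.24). The B-type cyclins Ccnb1 and Ccnb2, whose destruction ends mitosis, had log2 fold changes of -0.08 and -0.04 (edgeR adjusted p = 0.736 and 0.758), and Ccnf, a cyclin-like subunit of an SCF ubiquitin ligase, had 0.01. Their standard errors were 0.14, 0.07 and 0.08.

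**Figure D3:**
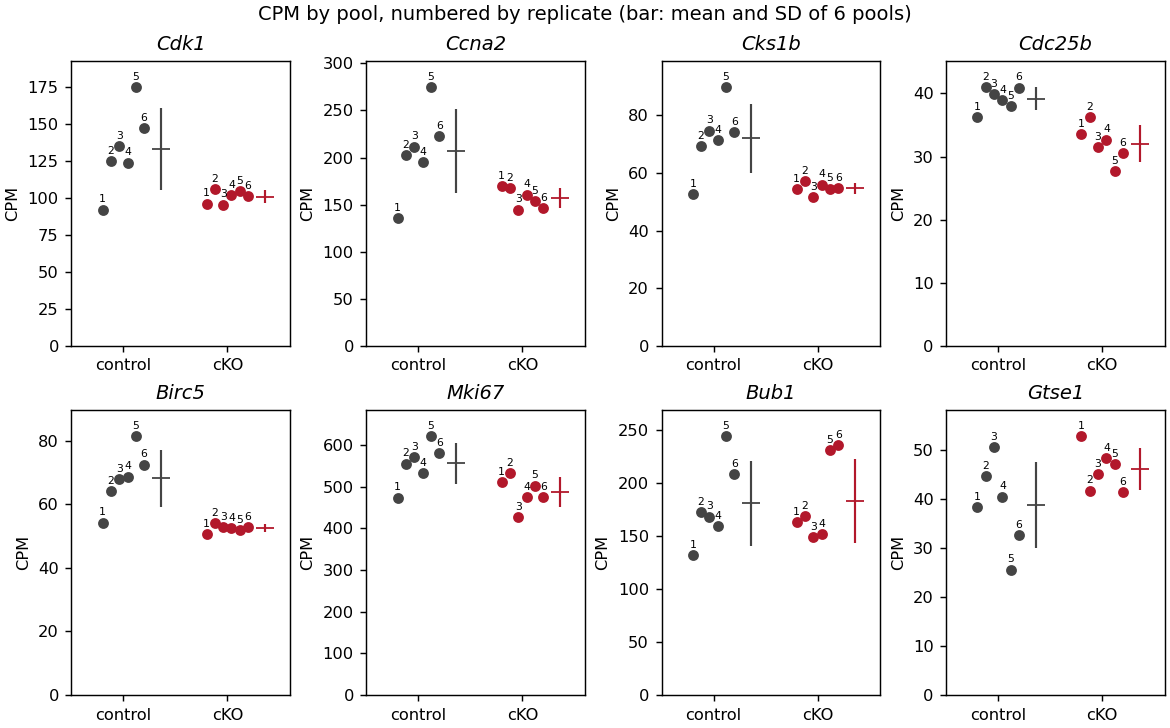
CPM of 8 G2/M and mitosis genes in each pool. Each panel is 1 gene, points are pools numbered by replicate, the bar is the mean with the SD of 6 pools, and the y axes start at 0. Control replicate 1 lies just under the cKO pools for Cdk1 and Ccna2 and among them for Cks1b and Mki67, control replicate 5 is highest for Cdk1, Ccna2, Cks1b, Birc5 and Mki67 and lowest for Gtse1, and Bub1 is high in cKO replicates 5 and 6.

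Among kinetochore and chromosomal passenger genes, Birc5 fell and 6 of 7 values were negative (median log2 fold change -0.25). Birc5 (Entrez Gene 11799, chr11:117849237-117855743) encodes survivin, the subunit that brings Aurora B to the centromere and the midbody. The 6 control values were 54.2, 64.1, 67.9, 68.7, 81.4 and 72.4 CPM and the 6 cKO values were 50.5, 54.1, 52.7, 52.5, 51.8 and 52.9 CPM. The groups did not overlap, though only just (54.1 CPM in the highest cKO pool and 54.2 CPM in control replicate 1), and Birc5 was the only 1 of the 40 genes without overlap, against 3.13% of all genes tested. The log2 fold change was -0.37 (68.1 ± 9.01 to 52.4 ± 1.196 CPM, SE 0.08, adjusted p = 0.0115 in the quasi-likelihood test of edgeR), and the call held in all 26 alternative fits, with an edgeR, DESeq2 or limma adjusted p of up to 0.0353.

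The partner of survivin, Aurkb, the kinase of the chromosomal passenger complex, ran from 43.6 to 59.5 CPM in controls and from 35.7 to 49.6 CPM in cKO pools and did not pass the test (log2 fold change -0.25, edgeR adjusted p = 0.151). Cenpe, a kinesin that carries chromosomes to the metaphase plate, and Ndc80 and Nuf2, which form the microtubule-binding arm of the kinetochore, had values of -0.35, -0.33 and -0.20 (edgeR adjusted p = 0.0838, 0.168 and 0.3). Cenpa, the centromeric histone H3, had -0.16. Cenpf, a kinetochore and nuclear matrix protein with the highest RNA per kilobase here (30.9 control CPM per kb), ran from 254 to 422 CPM in controls (median 351) and from 323 to 405 CPM in cKO pools (median 359), with a log2 fold change of 0.06. Nuf2, the lowest at 14.8 control CPM per kb, ran from 42.4 to 81.4 CPM (median 56.1) and from 46.2 to 54.3 CPM (median 49.9).

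None of the 3 mitotic kinases Plk1, Aurka and Nek2 and none of the 6 checkpoint and APC/C genes passed the test. Aurka, which matures centrosomes, had 44.3 to 68.4 CPM in controls (median 61.6) and 51.4 to 61.0 CPM in cKO pools (median 53.1, log2 fold change -0.15, edgeR adjusted p = 0.354). Plk1, which drives mitotic entry and exit, had -0.03, and Nek2, a centrosome-splitting kinase, had 0.09, with 37.0 to 50.7 CPM in controls (median 42.2) and 43.3 to 51.98 CPM in cKO pools (median 44.9). The checkpoint kinase scaffold Bub1b had -0.28 (edgeR adjusted p = 0.0931) and Mad2l1, the inhibitor of the APC/C, had -0.26 (edgeR adjusted p = 0.26), from 80.1 to 175 CPM in controls (median 124) and from 95.7 to 111 CPM in cKO pools (median 106). The checkpoint kinase Ttk had -0.09. The APC/C activator Cdc20 and its ubiquitin-conjugating enzyme Ube2c lay slightly higher, at 0.10 and 0.05.

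Bub1, a checkpoint kinase at the kinetochore, differed within groups more than between them. It had 163, 168, 149 and 152 CPM in cKO replicates 1 to 4 and 231 and 236 CPM in cKO replicates 5 and 6. Control replicate 1 had 132 CPM and control replicate 5 had 244 CPM. The log2 fold change was 0.02 over all 12 libraries and -0.24 over the 8 Xist-low libraries (edgeR adjusted p = 0.951 and 0.26). Ect2, the activator of RhoA at the cleavage furrow, had 147 and 148 CPM in cKO replicates 5 and 6 and 110 to 114 CPM in the other cKO pools, and Kif23, a kinesin of the central spindle, had 114 and 115 CPM there and 81.5 to 97.3 CPM in the others. The same 2 pools had the highest sums of meiosis markers, and the part of these cells in the values of Bub1, Ect2 and Kif23 was not tested.

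Spindle genes had 8 negative values of 9 and a median log2 fold change of -0.18, and 0 passed the test. Tpx2, the factor that activates Aurora A on the spindle and the member with the highest RNA per kilobase of this group (37.2 control CPM per kb), had 128 CPM in control replicate 1, 156 to 190 CPM in the other controls (median of all 6, 165 CPM) and 133 to 154 CPM in cKO pools (median 142), or -0.18 on the log2 scale (edgeR adjusted p = 0.19). Dlgap5, a spindle-assembly protein with the lowest level here (11.9 control CPM per kb), ran from 45.7 to 59.0 CPM (median 52.8) and from 35.3 to 53.4 CPM (median 46.7), with its lowest values in cKO replicates 5 and 6. Nusap1, a microtubule bundler, had -0.28, Kif20b -0.23, the depolymerizing kinesin Kif2c -0.20, the microtubule-binding Hmmr -0.18, the motor Kif11 -0.15 and Tacc3, which stabilizes kinetochore fibres, -0.13 (edgeR adjusted p from 0.147 to 0.348). Gtse1, a microtubule-tip protein that opposes p53, was the exception, with 25.6 to 50.5 CPM in controls and 41.5 to 52.8 CPM in cKO pools and a value of 0.24 (edgeR adjusted p = 0.266).

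The 3 cytokinesis genes and the 3 chromosome genes did not pass the test either. Anln, an actin-binding protein of the cleavage furrow, had 123 CPM in control replicate 1 and 162 to 221 CPM in the other controls (median of all 6, 169 CPM), and 131 to 156 CPM in cKO pools (median 153), at -0.21 on the log2 scale (edgeR adjusted p = 0.241). Kif23 had -0.21 and Ect2 0.05, and Ect2 ran from 92.3 to 157 CPM in controls (median 120) and from 110 to 148 CPM in cKO pools (median 113). Top2a, the topoisomerase that untangles chromosomes and the member with the most RNA per kilobase of all 40 (147 control CPM per kb), ran from 522 to 1054 CPM in controls (median 737) and from 572 to 744 CPM in cKO pools (median 685), with -0.20 (edgeR adjusted p = 0.391). Mki67, which encodes the proliferation marker Ki-67 and coats mitotic chromosomes, had 474 to 621 CPM in controls (median 563) and 427 to 532 CPM in cKO pools (median 489), also with -0.19 (edgeR adjusted p = 0.127). Smc4, a condensin subunit, had 294 ± 18.6 and 294 ± 18.7 CPM (SD, n = 6 pools each) and differed by -0.0010 on the log2 scale, with a standard error of 0.06. The levels per kilobase use the longest transcript of each gene, which makes genes with long alternative ends look low.

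The levels of most of the 40 genes varied together from library to library. The correlation of each gene's log2 CPM with the mean of the others over the 12 libraries, given as a description since all share the same libraries, had a median of 0.85 and exceeded 0.5 for 30 genes, with Gtse1 lowest at -0.42. The first principal component of the 40 genes held 68.4% of their variance and the second 15.2%. Gene loadings on the first and second component correlated with transcript GC content at -0.65 and -0.74, given as a description. Scores on the first ran from -1.71 in control replicate 1 to 2.64 in control replicate 5. The mean log2 CPM over the 40 genes was 6.34 in control replicate 1, 6.63 to 6.90 in the other 5 controls and 6.45 to 6.62 in the 6 cKO pools. Control replicate 1 was thus below all cKO pools and all cKO pools were below the 5 other controls. Control replicate 1 had the lowest control value for 34 of 40 genes and control replicate 5 the highest for 28.

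**Figure D4:**
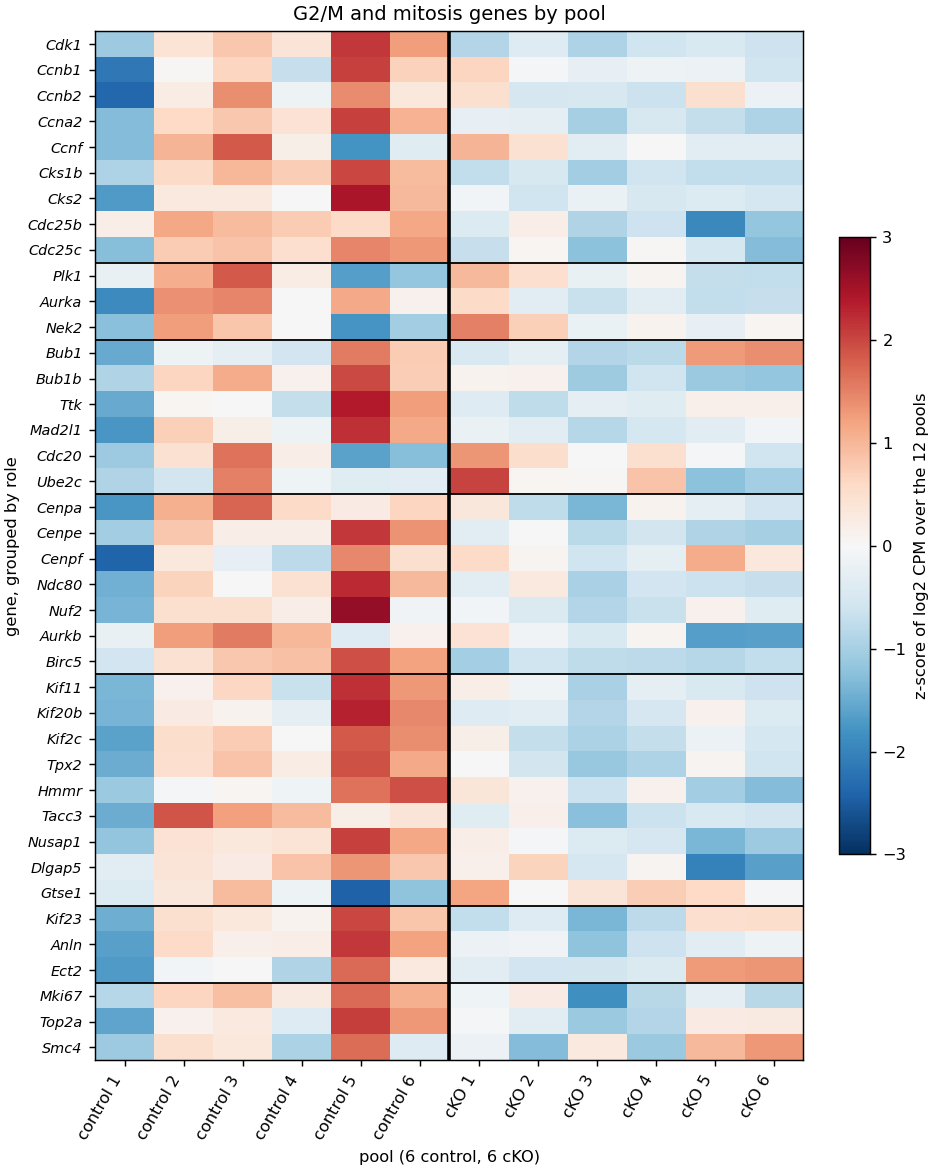
Expression of the 40 genes in each pool. Rows are genes grouped by role, columns are pools with the controls to the left of the thick line, and colour is the z-score of log2 CPM over the 12 pools. Control 1 is blue for most genes, and control 5 is red for most genes but on the blue side for Ccnf, Plk1, Nek2, Cdc20, Gtse1, Aurkb and Ube2c.

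With all pools kept, the spread of these genes, as of most genes, was smaller in the cKO pools. The coefficient of variation had a median of 7.51% over the 40 genes in cKO and 17.0% in control pools, and was larger in controls for 35 of 40 genes (87.5%). Over the 8902 tested genes whose mean CPM lay in the range of the members, the medians were 7.5% in cKO and 13% in control pools, and 75.9% had the larger value in controls. For the members the control value was 13.6% without replicate 1, 14.45% without replicate 5 and 7.87% without both, where 22 of 40 were still larger in controls. For the 8902 genes the control median without both was 6.994%, against 7.501% in cKO, and 43% were larger in controls. Leaving these control replicates out was chosen after seeing the data. For Birc5 the SD was 1.196 CPM in cKO against 9.01 CPM in control pools, and for Cdk1 4.35 against 27.5 CPM.

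Leaving out control replicate 1 raised the count of lower genes to 19 of 40 (47.5%), where 10.5% of all genes tested were then called lower, and moved the median log2 fold change to -0.26. High Xist was then found only in cKO pools (replicates 3, 5 and 6), so in this fit it cannot be told apart from genotype. The genes added were Ccna2, Cks2, Cdc25c, Aurka, Bub1b, Mad2l1, Cenpa, Cenpe, Ndc80, Kif2c, Tpx2, Tacc3, Nusap1, Anln and Mki67. In 13 of the 40 genes every cKO pool lay under the 5 other controls, against 7.49% of all genes tested. They were Cdk1, Ccna2, Cks1b, Cks2, Cdc25b, Cdc25c, Cenpe, Birc5, Tpx2, Tacc3, Nusap1, Anln and Mki67. Control replicate 1 was the lowest control for 34 of the 40 genes, so leaving it out makes such separation likelier. With all 6 controls, 1 of 40 was without overlap, against 3.13% of all genes tested. In this count, too, high Xist was found only in cKO pools. Of the 12 libraries, leaving out any of the 11 other than control replicate 1 gave 1 to 3 calls, where 3.19% to 4.81% of all genes were lower. With all 4 libraries of high Xist left out, 4 of 40 were lower (Cdk1, Ccna2, Cks1b and Birc5), where 3.39% of all genes were, and the median was -0.20, with 34 values negative. With Xist over 100 CPM as a covariate, 2 were lower (Cdc25b and Birc5; 4.23% of all genes) and the median was -0.13.

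Which controls read highest differed with GC content. Across the 40 genes the deviation of control replicate 5 from the mean of the 12 libraries correlated with transcript GC content at -0.74, and that of control replicate 6 at -0.61, while control replicates 3 and 1 had 0.78 and 0.62. The 20 members with GC content of 39.4% to 46.3% lay 0.49 above that mean in control replicate 5 on the log2 scale, and control replicate 6 followed at 0.24. The 20 with 46.6% to 56% lay 0.09 above it in control replicate 5 and 0.06 in control replicate 6, below control replicates 3 (0.22) and 2 (0.14). In control replicate 1 the low-GC set lay at -0.362 and the high-GC set at -0.185. Gtse1 (54.3% GC, deviation -0.70), Cdc20 (55.6%, -0.33) and Plk1 (56%, -0.32) read low in control replicate 5. Over the 40 members, which share these libraries, log2 fold change and GC content had a correlation of 0.25, given as a description. Members had a median GC content of 46.5% against 49.8% for genes tested. After an offset for GC content fitted in each library, 5 of 40 were lower (the 4 and Ccna2), where 5.78% of all genes were, with a median of -0.16. With that offset in the 8 libraries of low Xist, 6 were lower (those 5 and Kif23), against 5.84% of all genes. With control replicates 5 and 6 left out, only Birc5 was lower, against 3.18% of all genes, and the median was -0.07. DESeq2 on all libraries called 5 lower (the 4 and Ccna2), against 6.27% of all genes.

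**Figure D5:**
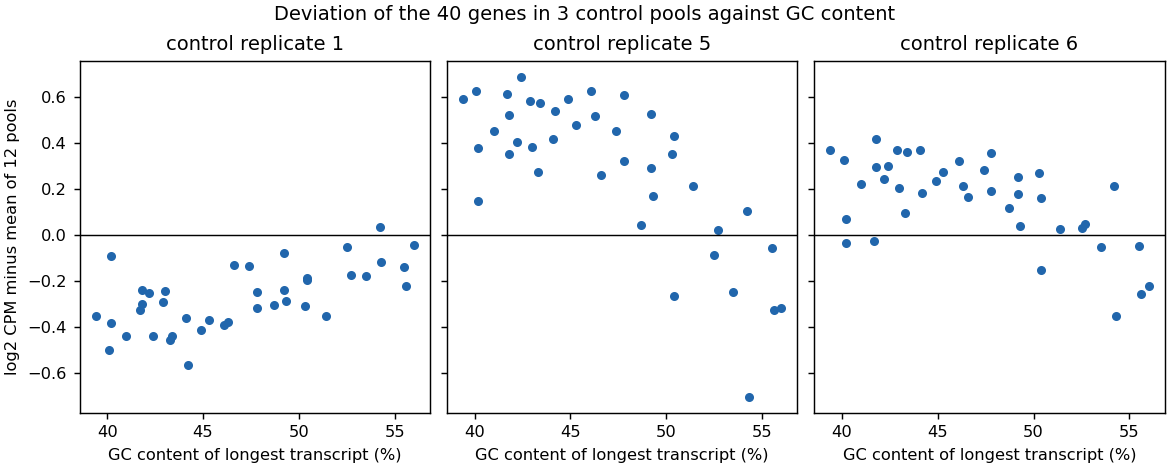
Deviation of the 40 genes from the mean of the 12 pools in control replicates 1, 5 and 6 (log2 CPM, y axis) against the GC content of the longest transcript (%, x axis). Each point is a gene. In control replicate 5 the values run from 0.69 (Ndc80) to -0.70 (Gtse1) and go down with GC content, whereas in control replicate 1 almost all lie under 0 and go up with GC content.

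Markers of some other cell types differed between the groups as well, beside the 4.85% of all genes called lower and 3.28% called higher. The 10 interstitial markers summed to 5709 to 7192 CPM in control and 3161 to 5948 CPM in cKO pools, with all 10 log2 fold changes negative and 5 called lower, and the 8 Leydig markers to 2200 to 3548 and 1283 to 2384 CPM, with 4 called lower. Sertoli markers (12 genes, 1235 to 1782 and 1184 to 1785 CPM) and germ cell markers (15 genes, 1624 to 2760 and 2160 to 2395 CPM) had 0 genes called, and the germ cell sum, like the members, was lowest in control replicate 1 and highest in control replicate 5. Endothelial markers (10 genes) summed to 425 to 622 and 422 to 521 CPM with 1 called lower, erythroid markers (10 genes) to 1553 to 2283 and 1224 to 1845 CPM with 1 called lower, and immune markers (11 genes) to 57.4 to 89.1 and 82.5 to 101 CPM with 3 called higher. All 14 meiosis genes had positive log2 fold changes with a median of 0.82, 1 called higher and 10 higher at an unadjusted p under 0.05 (against 12.1% of all genes), and in the libraries of low Xist the median was 0.0058. Of the 6 ovarian markers 1 was called lower, the only negative value of the 6, whose median was 0.39. The 4 Y-linked genes all had negative values with a median of -0.31, and 0 were called. The part of these shifts in the values of the G2/M genes was not tested.

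Other genes of the mitotic apparatus also had mostly negative values. Of 127 other G2/M and mitosis genes, all of which were tested, 10 were lower and 0 higher (7.87%, against 4.85% and 3.28% of all genes), 100 values were negative and the median log2 fold change was -0.12. At an unadjusted p under 0.05, 2 were higher, against 12.1% of all genes. The 10 were Pimreg (-0.57), a mitotic regulator that binds the CALM protein, Depdc1a (-0.60), Aspm (-0.47), a spindle pole protein, Cdca3 (-0.41), Spag5 (-0.37), which is needed for spindle poles, the kinetochore genes Nsl1 (-0.35), Cenpu (-0.30) and Spc24 (-0.30), the APC/C subunit Cdc26 (-0.27), and Lin54 (-0.26), the subunit of MuvB that contacts the CHR. Pimreg went from 38.3 ± 5.63 to 25.7 ± 3.94 CPM (SD, n = 6 each, adjusted p = 0.01 in the quasi-likelihood test of edgeR). For Lin54 the means were 34.1 ± 2.14 and 28.5 ± 1.48 CPM without overlap (edgeR adjusted p = 0.0257), and the call was lost in the libraries of low Xist (0.0556) and with the GC offset (0.0761). Foxm1, a transcription factor of late cell cycle genes, had a log2 fold change of -0.01 and Mybl2, the B-MYB partner of MuvB, had 0.24 (edgeR adjusted p = 0.954 and 0.175). The count of 10 became 34 without control replicate 1 (26.8%, where 10.5% of all genes were lower), 7 with only the libraries of low Xist (5.51%, against 3.39%) and 1 without control replicates 5 and 6 (0.787%, against 3.18%). Of the 7, 3 were among the 10 (Pimreg, Depdc1a and Cdca3).

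By group, the medians of these other genes were -0.21 for 17 cytokinesis genes (4 lower), -0.16 for 28 kinetochore genes (3 lower), -0.15 for 7 condensin genes (0 lower), -0.14 for 10 passenger and cohesion genes (0 lower), -0.07 for 8 entry and exit genes (0 lower), -0.05 for 23 kinesin and spindle genes (1 lower), -0.05 for 15 APC/C and separation genes (1 lower), -0.02 for 11 regulators (1 lower) and 0.01 for 8 checkpoint genes (0 lower). In the libraries of low Xist the order was another: -0.275 for kinetochore, -0.20 for cytokinesis, -0.17 for condensin, -0.16 for passenger and cohesion, -0.14 for kinesin and spindle, -0.13 for APC/C and separation, -0.07 for regulator, -0.04 for checkpoint and -0.02 for entry and exit genes. Of the brakes on CDK1, Wee1 had 0.02 and Pkmyt1 -0.06 (edgeR adjusted p = 0.896 and 0.73). Genes of S phase, the phase before G2, had 4 of 38 called lower (10.5%, against 10% of the members and 4.85% of all genes), 0 higher and a median of -0.08, or -0.15 in the libraries of low Xist.

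Outside the members, the genes whose log2 CPM followed their mean most closely over the 12 libraries, out of 14222 candidates averaging at least 1 CPM, were Kif20a (Pearson r = 0.97), Rrm1 (0.97), Pgap1 (0.96), G3bp1 (0.96), Cenpc1 (0.96), Nnat (0.95), Mcm7 (0.95), Psmg2 (0.95), Apex1 (0.95) and Tuba1a (0.95). Kif20a is a kinesin of cytokinesis, Rrm1 and Mcm7 serve DNA synthesis and Cenpc1 is a kinetochore protein, and 0 of the 10 were called in cKO testes, with edgeR adjusted p of 0.1 (Nnat) or more.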

How the data were processed

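RNA-seq counts from 6 control and 6 cKO pools were grouped by labelled genotype, and no column was left out. According to the methods and processing notes, the authors trimmed read pairs with Trim Galore 0.6.7, aligned them to mm10 with STAR 2.5 and counted them by strand on RefSeq Curated genes with featureCounts (Subread 1.5.0-p1), and they deposited raw counts per gene, without normalization. Because counting used strand, the opposite-strand neighbours of Ccna2 (Exosc9), Cdc20 (Elovl1) and Nusap1 (Oip5) are counted apart from them.

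The analysis used R 4.3.3 and edgeR 4.0.16 with TMM scaling, filterByExpr (minimum count 10, minimum total count 15), glmQLFit and glmQLFTest with no covariate, and Benjamini-Hochberg adjustment over all 15572 genes tested, with a threshold of 0.05. The study used DESeq2, and version 1.42.0 at default settings was one alternative. A standard error (SE) is the log2 fold change divided by the square root of F. CPM were scaled by TMM, and log2 CPM added a prior count of 2. Total counts of 7044531 to 59404778 gave every member at least 119 reads per library, and how much counting error added to the spread between pools was not tested. GC content and length came from the longest GENCODE M21 transcript, found for 15224 of 15572 genes, and the GC offset from a lowess curve (span 0.3) in each library over genes averaging 5 CPM or more. Promoters were RefSeq's. Alternatives were other scalings and filters, DESeq2, limma-voom (limma 3.58.1), a replicate block, leaving out each library, and Xist as a covariate or split. The GC offset and leaving out control replicates 5 and 6 were chosen after seeing the data. So was the count of genes with every cKO pool under the 5 controls other than replicate 1. The tests were tested on simulated data.

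The members, the gene lists and the tests were chosen with earlier results of these data known. Named genes were all 40 members, with values by pool for those called and for the members with the highest and lowest level per kilobase in each role group, the other mitosis genes called, and the 10 genes most correlated with the members. Foxm1, Mybl2, Wee1, Pkmyt1 and the members singled out for a library (Bub1, Ect2, Kif23, Gtse1, Cdc20 and Plk1) were added after their values were seen.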

Additional observations from a re-analysis of the deposited data

Results flagged for a closer look

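Each of the 40 genes and their mean was examined in each group of 6 pools for 1 pool that lay far from the other 5, 82 checks in all, of which chance alone gives about 1 in 20. There were 3 such values. Cdc25c had 13.93 CPM in control replicate 1, below the 19.8 to 24.0 CPM of the other controls. Ube2c had 85.39 CPM in control replicate 3, above the 65.7 to 71.5 CPM of the other controls. Aurka had 61.04 CPM in cKO replicate 1, above the 51.4 to 54.3 CPM of the other cKO pools.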

How the results depend on the processing

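Leaving out 1 library at a time gave 1 to 19 members lower (19 without control replicate 1), where 3.19% to 10.5% of all genes were lower, and 2 to 34 of the other mitosis genes, with 0 higher in every case, and member medians of -0.255 to -0.116. Of the other settings, member counts moved by over 1.5 times with Xist as a covariate (2) and without control replicates 5 and 6 (1), and the count of other mitosis genes with limma-voom (6), the replicate block (2), Xist as a covariate (3), the GC offset with the replicate block (5), the GC offset in the libraries of low Xist (20) and without control replicates 5 and 6 (1). The cause was not tested. The median was negative in all 26 alternatives. Birc5 was called in 26 of 26, Cks1b in 22, Cdc25b in 20 and Cdk1 in 7, the last of which also missed the threshold under other scalings (edgeR adjusted p of 0.0542 to 0.0566), with no filter (0.0518) and by limma-voom (0.0735), at log2 fold changes of -0.397 to -0.361 against -0.395. Its value was smaller when lost with Xist as a covariate (-0.311), without control replicate 5 (-0.294) and without control replicates 5 and 6 (-0.231). When 1 library was left out, Cks1b was lost without control replicate 6 or cKO replicate 3, and Cdc25b without control replicates 2 or 6 or cKO replicates 3 or 6, each with an edgeR adjusted p of at most 0.0542. Cks1b was also lost with Xist as a covariate (edgeR adjusted p = 0.0563) and without control replicates 5 and 6 (0.0771), and Cdc25b in the libraries of low Xist (0.0941) and without control replicates 5 and 6 (0.0518). The correlation of same-numbered deviations ran from -0.304 to 0.324 and 0 of 6 pools matched their own number best. With so few pools this cannot tell whether pools of the same number shared litters, and the labels do not say. The replicate block left 3 members lower (Cks1b, Cdc25b and Birc5), where 3.46% of all genes were, with a median of -0.174.

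Some members changed sign in some settings, none of them past the threshold. With Xist as a covariate these were Ccnb1 (0.0437), Ccnb2 (0.00125), Plk1 (0.0221) and Bub1 (-0.00507). In the libraries of low Xist they were Plk1 (0.0597), Bub1 (-0.236), Cenpf (-0.0225) and Ect2 (-0.154), and there with the GC offset Ccnf (-0.0209), Bub1 (-0.115), Hmmr (0.00283), Ect2 (-0.0309) and Smc4 (0.0217). With the GC offset alone they were Ccnf (-0.0145) and Smc4 (0.0522), and with the replicate block added Ccnf (-0.00863) and Smc4 (0.0543). Without control replicates 5 and 6 they were Ccnb1 (0.103), Ccnb2 (0.00593), Ccnf (-0.0512), Ttk (0.0514), Cdc20 (-0.00694), Top2a (0.021) and Smc4 (0.033). With library totals only they were Plk1 (0.00285) and Smc4 (0.0304), with no filter Smc4 (0.000392) and with at least 1 CPM in 6 libraries Smc4 (6.72e-05). When 1 library was left out, values ran from -0.185 to 0.04 for Ccnb1, -0.0299 to 0.0654 for Ccnf, -0.0804 to 0.0498 for Plk1, -0.0661 to 0.132 for Bub1, -0.0197 to 0.1 for Ube2c, -0.0133 to 0.136 for Cenpf, -0.0231 to 0.142 for Ect2 and -0.0239 to 0.0348 for Smc4.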
